A study of Mus musculus with 12 samples.

Results

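Toll-like receptors are the pattern-recognition receptors with which macrophages and microglia sense microbial products and nucleic acids. The 10 genes described here, Tlr1, Tlr2, Tlr3, Tlr4, Tlr5, Tlr6, Tlr7, Tlr8, Tlr9 and Tlr13, were taken by symbol from the 31054 genes listed in the count tables, and all 10 were found. Their levels were compared between HSPC-derived microglia-like cells (GFP+ MLCs) and endogenous microglia (GFP-) of the same brains and between mice dosed by the i.v. or the i.c.v. route. The libraries were made with a 3' single-cell kit that counts unique molecular identifiers (UMIs), and levels are given as CPM, the UMIs of a gene per 1000000 UMIs, summed over the cells of a library.

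The 4 treated mice were wild-type C57BL/6J recipients conditioned with busulfan, 1 female and 1 male for each route, and each mouse gave a GFP+ and a GFP- library of CD45+ CD11b+ CX3CR1+ cells sorted from dissociated brain. All received lineage-negative HSPCs of male donors that carried a GFP lentiviral vector (LVV.GFP), into the vein or into the lateral ventricle, and 5 days later non-transduced total marrow i.v. Donor cells without the vector could therefore fall in the GFP- sort, and that sort is called endogenous microglia as the study named it. The labels give 22 to 28 weeks as the age of the treated mice, while the series text places collection 12 to 13 months after dosing. Treatment-naive C57BL/6J microglia, PBMCs, neurons and astrocytes (8 to 12 weeks by the labels) gave 1 library each.

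Of the 12 libraries, the 8 from treated mice held 27439 kept cells, 2266 to 4555 per library, with 4970758 to 16514669 UMIs and a median of 842 to 3499 UMIs per cell. The GFP+ library of the i.v. female was the deepest. The EGFP transcript was at 16.8 to 33.3 CPM in GFP+ and 0 to 0.153 CPM in GFP- libraries. At most 8 barcodes were shared by any pair of treated libraries. Microglial markers reached 9452 to 12942 CPM in GFP- and 4444 to 8875 CPM in GFP+ libraries, all 9 markers of the list being detected in each. The naive library labelled neurons went against its label, since 95.5% of its cells carried at least 3 of 8 oligodendrocyte markers and 0.522% at least 3 of 8 neuron markers, and it is called the library labelled neurons below. Malat1, a nuclear transcript, took 3.42% to 4.04% of UMIs in GFP+ and 4.92% to 7.13% in GFP- libraries, and its part in the differences below was not tested.

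Toll-like receptors fall into those that act at the cell surface and those that act in endosomes. Tlr2, which pairs with Tlr1 or Tlr6, senses bacterial lipoproteins, Tlr4 senses lipopolysaccharide with its co-receptors, and Tlr5 senses flagellin. In the endosome, Tlr3 senses long duplex RNA, Tlr7 and Tlr8 sense RNA and its breakdown products, Tlr9 senses unmethylated CpG DNA, and Tlr13 senses bacterial ribosomal RNA. The endosomal receptors are carried to their compartment by the chaperone Unc93b1 and are cut there by proteases, and most members signal through the adaptor Myd88, with Tlr3 using Ticam1.

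The members lie on 7 chromosomes of GRCm38 (GENCODE M21), with 3 endosomal receptors on the X chromosome. Tlr7 (ENSMUSG00000044583) is at chrX:167304929-167330558, Tlr8 (ENSMUSG00000040522) at chrX:167242696-167264329 and Tlr13 (ENSMUSG00000033777) at chrX:106143204-106160493. Tlr3 (ENSMUSG00000031639) is at chr8:45395665-45411080 and overlaps the antisense gene Gm45542 at its 5' end. Tlr1 (ENSMUSG00000044827, chr5:64924679-64933563) and Tlr6 (ENSMUSG00000051498, chr5:64952031-64960097) are neighboring paralogs on the same strand, so reads of their similar stretches may have been split or dropped in the counting. Tlr2 (ENSMUSG00000027995) is at chr3:83836272-83841767, Tlr4 (ENSMUSG00000039005) at chr4:66827584-66930284, Tlr5 (ENSMUSG00000079164) at chr1:182954788-182976044 and Tlr9 (ENSMUSG00000045322) at chr9:106222598-106226883. UMIs of a 3' assay count transcripts near their ends and do not grow with transcript length, and every order of levels between receptors below is on that scale.

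RefSeq promoter windows of GRCm38.p6 were matched for 8 of the 10 members. The bases before the start are shown for Tlr8 and Tlr1, the members called higher in MLCs, from chrX:167264330-167264579 and chr5:64933564-64933808, both on the minus strand and written 5' to 3'. Capitals mark the PU.1-type letters GAGGAA or their reverse complement TTCCTC, PU.1 being a factor that macrophages and microglia depend on.
Tlr8: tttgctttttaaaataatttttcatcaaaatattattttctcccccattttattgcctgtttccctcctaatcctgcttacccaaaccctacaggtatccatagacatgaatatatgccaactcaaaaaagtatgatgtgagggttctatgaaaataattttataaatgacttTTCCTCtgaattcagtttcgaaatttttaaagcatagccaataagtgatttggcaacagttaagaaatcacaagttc
Tlr1: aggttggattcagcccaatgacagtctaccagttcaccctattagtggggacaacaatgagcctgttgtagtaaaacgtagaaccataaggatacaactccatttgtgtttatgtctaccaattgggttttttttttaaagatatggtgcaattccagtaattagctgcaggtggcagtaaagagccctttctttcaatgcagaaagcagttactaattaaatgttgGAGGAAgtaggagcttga

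The match lies 77 bases before the end of the Tlr8 stretch and 18 bases before the end of the Tlr1 stretch. These letters were also found, on either strand of the 250 bases before the start, for Tlr9 and Tlr13, and in 23.3% of all 32851 windows. They were not found for Tlr2, Tlr3, Tlr5 or Tlr6. A match is a description of the letters, and binding was not measured in these libraries.

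Among the surface receptors, Tlr2 was the most abundant in every library of treated mice. It reached 202, 307, 235 and 329.7 CPM in the GFP+ libraries of the i.v. female, i.v. male, i.c.v. female and i.c.v. male mice, the order used for all values below. In the GFP- libraries it reached 168, 207, 271 and 249 CPM. The sorts overlapped, since the i.v. female and i.c.v. female MLCs lay within the GFP- range. Tlr2 took 80.1% ± 4.79 (SD, n = 4 libraries) of the summed surface level in MLCs and 72.6% ± 6.01 (SD, n = 4) in endogenous microglia.

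Tlr4 was next, at 34.8, 30.4, 41.2 and 38.0 CPM in GFP+ and 49.5, 52.3, 45.3 and 45.8 CPM in GFP- libraries. On this scale every MLC library lay below every endogenous library. The TMM normalization trims the genes most extreme in change or abundance and sets the scale from the rest. After TMM scaling the sorts overlapped, at 39.7 ± 3.11 CPM (SD, n = 4) in MLCs and 43.6 ± 1.12 CPM (SD, n = 4) in endogenous microglia.

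The partners of Tlr2 were lower. Tlr1 reached 21.3, 15.0, 16.8 and 16.8 CPM in GFP+ and 18.3, 14.1, 14.6 and 16.5 CPM in GFP- libraries, which overlapped. Tlr6 lay between 4.40 and 7.81 CPM in GFP+ and between 7.03 and 12.5 CPM in GFP- libraries. Tlr5, the flagellin receptor, lay between 3.28 and 5.78 CPM in GFP+ and between 6.42 and 10.3 CPM in GFP- libraries. It had 29 to 64 UMIs in each of these libraries and no overlap between the sorts.

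Among the endosomal receptors, Tlr3 reached 18.7, 11.4, 14.5 and 15.5 CPM in GFP+ libraries and 61.4, 56.5, 32.3 and 46.5 CPM in GFP- libraries. Each MLC library lay well below each endogenous library, and the lowest endogenous value was that of the i.c.v. female.

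Tlr7 reached 62.6, 52.9, 74.9 and 69.7 CPM in GFP+ libraries and 142, 120.3, 122 and 109 CPM in GFP- libraries, again with no overlap. Tlr8 went the other way. It reached 30.3, 26.4, 25.8 and 30.4 CPM in GFP+ libraries and 6.24, 6.28, 21.5 and 9.90 CPM in GFP- libraries. The MLC libraries lay close together, while the endogenous libraries ranged widely and the i.c.v. female came nearest to the MLCs.

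Tlr13 reached 61.9, 48.7, 66.7 and 67.6 CPM in GFP+ and 77.7, 73.4, 69.1 and 67.5 CPM in GFP- libraries, which overlapped at their edge. Tlr9 was the rarest member in treated mice, at 1.47 to 3.81 CPM in GFP+ and 3.33 to 6.04 CPM in GFP- libraries, with 13 to 63 UMIs in each of these.

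In MLCs the order of mean levels was Tlr2, Tlr7, Tlr13, Tlr4, Tlr8, Tlr1, Tlr3, Tlr6, Tlr5 and Tlr9, and in endogenous microglia it was Tlr2, Tlr7, Tlr13, Tlr3, Tlr4, Tlr1, Tlr8, Tlr6, Tlr5 and Tlr9. Neighbors in the order often lay within each other's spread. Tlr7 (65.0 ± 9.54 CPM, SD, n = 4) and Tlr13 (61.2 ± 8.69 CPM) did so in MLCs, as did Tlr3 (49.2 ± 12.8 CPM) and Tlr4 (48.2 ± 3.29 CPM) in endogenous microglia.

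**Figure D1:**
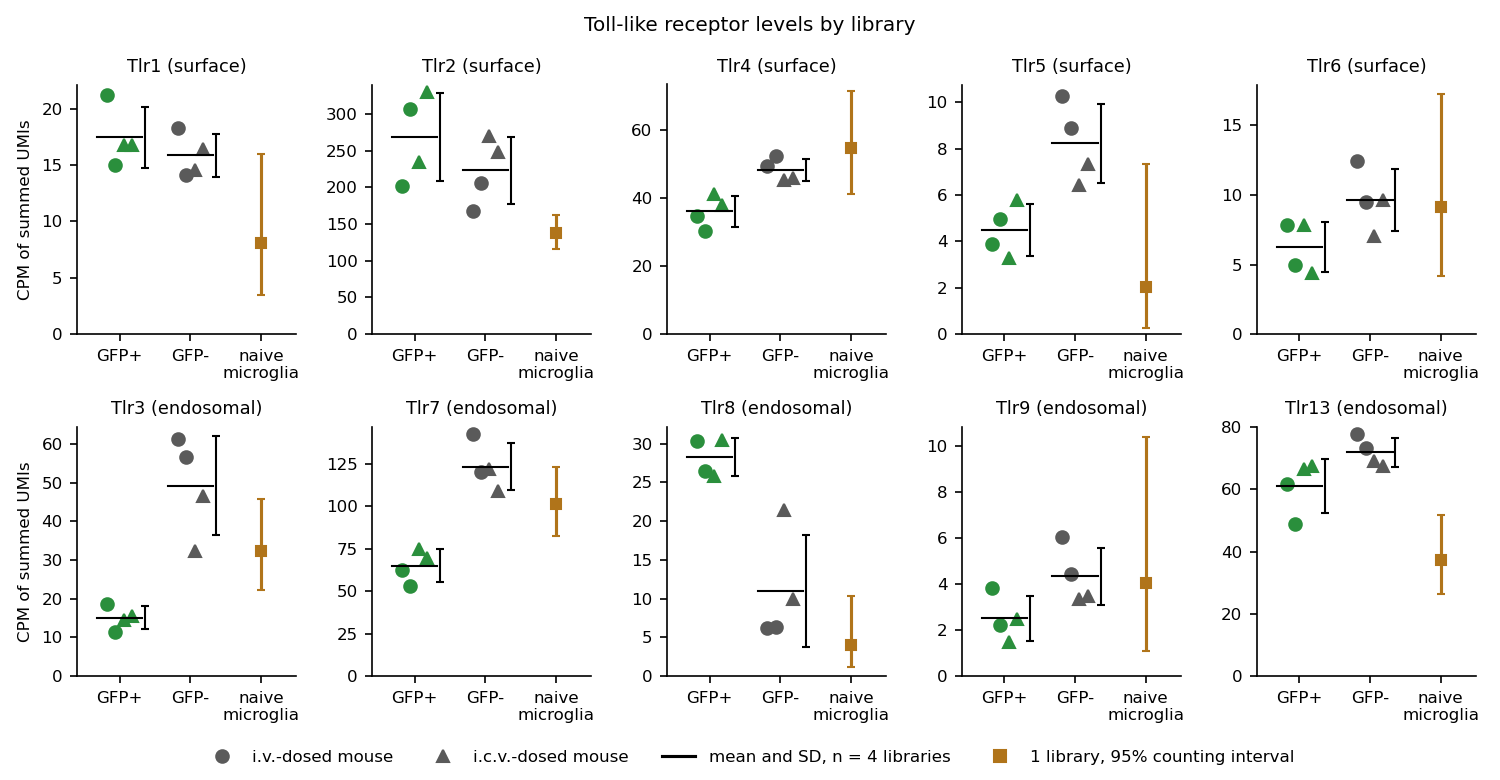
Levels of the 10 Toll-like receptors in CPM of summed UMIs (vertical axes, each from 0) in the 4 GFP+ libraries, the 4 GFP- libraries and the naive microglia library. Lines and bars give the mean and SD over 4 libraries, circles mark i.v.-dosed and triangles i.c.v.-dosed mice, and the bar on the naive square is the 95% counting interval. Tlr3, Tlr4, Tlr5, Tlr7 and Tlr8 separate the sorts on this scale, while Tlr1, Tlr2, Tlr6, Tlr9 and Tlr13 overlap.

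MLCs and endogenous microglia were compared in all 11756 genes that passed the filter on low counts, using the quasi-likelihood F test of edgeR with adjustment after Benjamini and Hochberg. All 10 members passed the filter and 4 were called at an adjusted p under 0.05, with 32.5% of all tested genes called, so the family was called about as often as genes in general. Tlr8 and Tlr1 were called higher in MLCs, against 16.6% of all genes, and Tlr3 and Tlr7 were called lower, against 15.9%. The median log2 fold change was -0.23 over the members and 0.01 over all tested genes. It was -0.14 over the surface receptors and -0.44 over the endosomal receptors.

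Tlr3 was lower in MLCs by a log2 fold change of -1.40 (SE 0.19, edgeR adjusted p = 0.00154), and it was lower in GFP+ than in GFP- cells in 4 of 4 mice. Tlr7 was lower by -0.65 (SE 0.11, edgeR adjusted p = 0.00409), also in 4 of 4 mice. Both remained called under all 19 alternatives tried, with adjusted p values of up to 0.0176 for Tlr3 and 0.0442 for Tlr7.

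Tlr8 was higher in MLCs by 1.60 (SE 0.38, edgeR adjusted p = 0.0128), in 4 of 4 mice. Within a mouse, the TMM-scaled log2 difference was 2.65 and 2.51 in the i.v. female and male, 1.85 in the i.c.v. male and 0.37 in the i.c.v. female. Fitted in the pair of i.c.v.-dosed mice, the difference was 1.001 and was not called (adjusted p = 0.124), and fitted in the pair of i.v.-dosed mice it was 2.56 (adjusted p = 0.00121). The i.c.v. female's GFP- cells weighed on the size, which was 2.21 without them (adjusted p = 0.000406), and with cells thinned to 500 UMIs it was 2.27 (adjusted p = 0.0030).

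Tlr1 was higher in MLCs by 0.43 (SE 0.15, edgeR adjusted p = 0.0498), just under the threshold, in 4 of 4 mice. It was called in 5 of 19 alternatives, and leaving out any 1 of the 8 libraries ended the call, with adjusted p values of 0.0538 to 0.136. Tlr2 differed by 0.54 (95% interval 0.05 to 1.02, adjusted p = 0.0832), higher in 3 of 4 mice, and was called by DESeq2 (adjusted p = 0.0482) and when the i.c.v. female's GFP- library was left out (adjusted p = 0.0453).

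The other members were not called. Tlr5 differed by -0.57 (95% interval -1.07 to -0.08, adjusted p = 0.0741), Tlr9 by -0.44 (-1.17 to 0.28), Tlr6 by -0.33 (-0.85 to 0.19) and Tlr4 by -0.14 (-0.33 to 0.06). The interval of Tlr13 lay close around zero, at 0.05 (-0.18 to 0.27), which leaves room for a change of either sign no larger than these limits.

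The scaling bears on these values. With library size alone, the median of all genes moved by 0.28 on the log2 scale, from 0.01 to -0.27, and 16.8% of the calls were higher in MLCs against 51.1% with TMM. Under that scaling Tlr1 was no longer called (0.14, adjusted p = 0.456), Tlr13 turned to -0.23 (adjusted p = 0.153) and Tlr4 (-0.42, adjusted p = 0.0188) and Tlr5 (-0.87, adjusted p = 0.0159) were called lower, while Tlr3, Tlr7 and Tlr8 kept their direction and their calls. In CPM, 5 of the 10 members did not overlap between the sorts, with 38.9% of all tested genes not overlapping, and in TMM-scaled CPM 4 members did not overlap, with 34.7% of all genes.

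**Figure D2:**
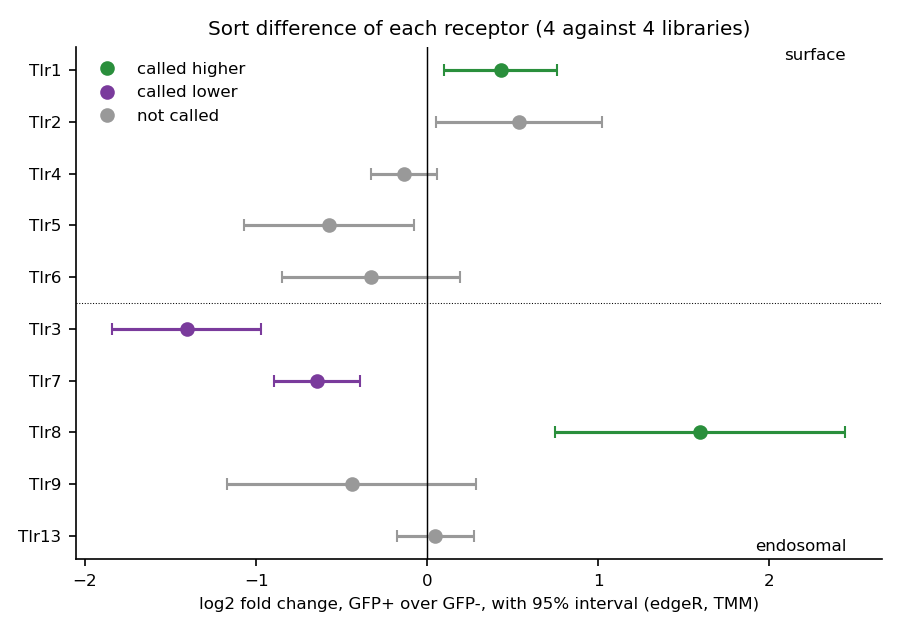
Log2 fold change of each receptor between GFP+ and GFP- libraries (horizontal axis, edgeR with TMM, 4 against 4 libraries), with 95% intervals, surface receptors above the dotted line and endosomal receptors below it. Tlr8 at 1.60 and Tlr3 at -1.40 lie farthest apart, and the intervals of Tlr4, Tlr6, Tlr9 and Tlr13 include 0.

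Summed over receptors, the endosomal share was lower in MLCs. The endosomal receptors summed to 177, 142, 183 and 186 CPM in GFP+ libraries and to 294, 261, 248 and 236 CPM in GFP- libraries, with no overlap. The surface receptors summed to 269.6, 363, 304 and 395 CPM in GFP+ libraries and to 259, 291, 344 and 328 CPM in GFP- libraries, which overlapped.

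As a share of the whole family, endosomal receptors made up 39.7%, 28.1%, 37.6% and 32% in GFP+ libraries and 53.2%, 47.3%, 41.9% and 41.9% in GFP- libraries. The share was lower in the GFP+ library of each of the 4 mice, and means were 34.4% ± 5.28 (SD, n = 4) and 46.0% ± 5.38 (SD, n = 4). Sums over members were not tested, and they are led by the most abundant receptors. Without Tlr2, the surface sum was 64.3 ± 6.20 CPM (SD, n = 4) in MLCs and 81.9 ± 7.40 CPM (SD, n = 4) in endogenous microglia. All these sums are in CPM without TMM scaling.

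**Figure D3:**
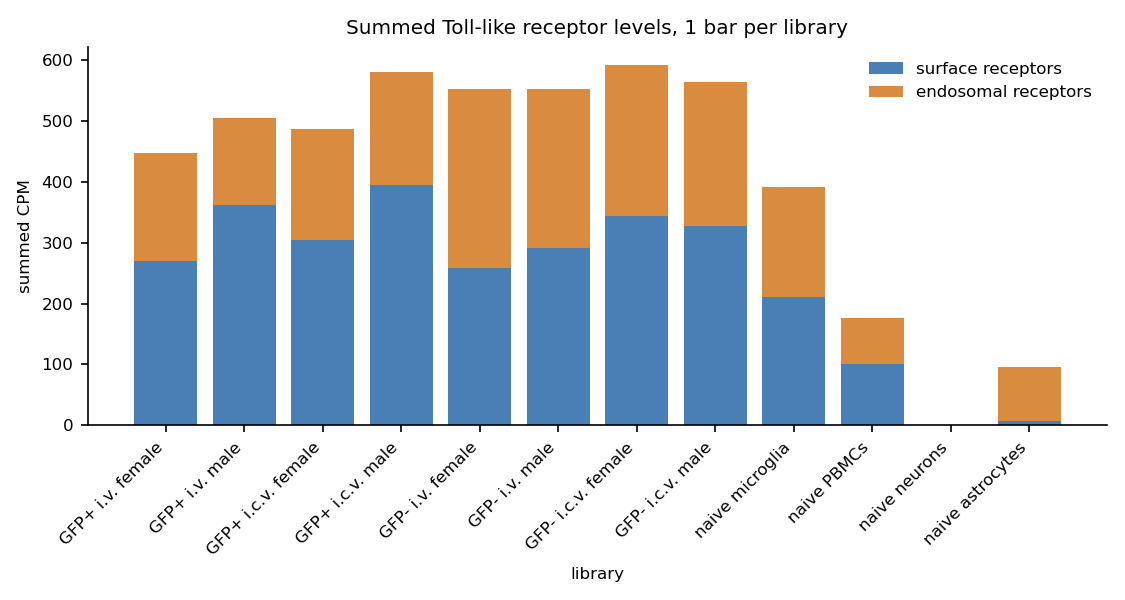
Summed CPM of surface receptors (blue) and endosomal receptors (orange), 1 stacked bar for each of the 12 libraries. Endosomal receptors take 142 to 186 CPM in GFP+ and 236 to 294 CPM in GFP- libraries, and the library labelled neurons held 1 receptor UMI in all.

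The share of cells with a transcript was compared after every cell had been thinned to 500 UMIs, cells with fewer being left out. Tlr2 was found in 12.7% ± 2.71 (SD, n = 4 libraries) of MLCs and in 10.2% ± 1.94 (SD, n = 4) of endogenous microglia. Tlr8 was found in 1.91%, 2.43%, 1.41% and 1.92% of cells in GFP+ libraries and in 0.299%, 0.220%, 1.24% and 0.489% in GFP- libraries. Tlr3 was found in 0.927% ± 0.161 (SD, n = 4) of MLCs and in 2.65% ± 0.478 (SD, n = 4) of endogenous microglia, and Tlr7 in 3.85% ± 0.127 and in 6.60% ± 0.395. The directions of these 3 endosomal receptors were thus the same per cell at equal depth as in summed counts.

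Any surface receptor was found in 16% ± 2.42 (SD, n = 4) of MLCs and in 14.1% ± 1.60 (SD, n = 4) of endogenous microglia at 500 UMIs. Any endosomal receptor was found in 9.88% ± 0.430 and in 13.2% ± 0.283. At their own depth, 12.3%, 9.84%, 7.59% and 8.34% of the cells of the GFP+ libraries had a Tlr8 UMI, and 1.01%, 0.812%, 3.56% and 1.76% of those of the GFP- libraries did, median depths being 1058 to 3499 and 842 to 1034 UMIs. In the library labelled neurons, 0 of 482 cells had any member at 500 UMIs, which allows a share of up to 0.622%, for counting error only.

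CNS-associated macrophage (CAM) markers moved with the sort. The 8 CAM markers, among them Mrc1, Pf4 and Ms4a7, summed to 2021 to 2669 CPM in GFP+ and 881 to 1591 CPM in GFP- libraries, all 8 being detected in each. Cells with at least 3 of them, at their own depth, made up 33.8% to 48.2% of GFP+ and 3.89% to 13.1% of GFP- libraries. The highest GFP- share was that of the i.c.v. female. The receptors were therefore also read within CAM-marked and within unmarked cells. CAM-marked cells carried at least 3 CAM markers and fewer than 3 of each of the monocyte, neutrophil, dendritic, B cell and T or NK lists. Unmarked cells carried 3 markers of neither the CAM list nor any list of another cell type.

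Tlr8 overlapped between the sorts in CAM-marked cells. It reached 40.4, 34.3, 30.6 and 31.7 CPM in CAM-marked MLCs and 41.6, 28.1, 34.9 and 29.9 CPM in CAM-marked GFP- cells, the latter from 21, 27, 97 and 53 UMIs. In unmarked cells it reached 18.6, 22.5, 16.9 and 28.2 CPM in GFP+ libraries and 1.86, 2.58, 14.3 and 4.02 CPM in GFP- libraries. Within the GFP- sort, Tlr8 was higher in CAM-marked than in unmarked cells in 4 of 4 libraries, by a ratio of 2.43 to 22.3. No other member was higher in all 4, beside 15.4% of all tested genes.

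Lower levels in CAM-marked than in unmarked cells, in 4 of 4 GFP- libraries, were found for 6 of the 10 members, Tlr3, Tlr4, Tlr5, Tlr6, Tlr7 and Tlr13, beside 47.9% of all tested genes. The ratios ran from 0.203 to 0.351 for Tlr3 and from 0.654 to 0.822 for Tlr13. In CAM-marked cells, Tlr3 lay between 11.8 and 16.5 CPM in GFP+ and between 13.3 and 19.8 CPM in GFP- libraries, while in unmarked cells it lay between 14.1 and 23.0 CPM in GFP+ and between 44.2 and 68.5 CPM in GFP- libraries. Tlr7 lay between 61.4 and 75.4 CPM in CAM-marked MLCs and between 68.7 and 115 CPM in CAM-marked GFP- cells. In unmarked cells Tlr7 lay between 53.6 and 78.4 CPM in GFP+ and between 123 and 151 CPM in GFP- libraries.

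Among CAM-marked cells the sorts overlapped for all 10 members, with 5.01% of all tested genes not overlapping. Among unmarked cells 8 members did not overlap, beside 25.6% of all genes, and Tlr1 and Tlr2 did. Of these 8, Tlr8 was higher in unmarked MLCs and the other 7 were lower, beside 21.0% of all genes lower without overlap. Tlr13, which differed little between whole libraries, lay between 43.2 and 61.9 CPM in unmarked GFP+ and between 73.5 and 81.7 CPM in unmarked GFP- cells. The pattern of overlap in CAM-marked and none in unmarked cells was found in 23.6% of all genes, and these CPM values carry no TMM scaling. The endosomal sum was 188 ± 17.4 CPM (SD, n = 4) in CAM-marked MLCs and 194 ± 22.4 CPM (SD, n = 4) in CAM-marked GFP- cells, against 162 ± 21.6 and 284 ± 19.2 CPM in unmarked cells.

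Among surface receptors, Tlr2 was at 274 ± 55.1 CPM (SD, n = 4) in CAM-marked MLCs and 263 ± 72.5 CPM (SD, n = 4) in CAM-marked GFP- cells. Tlr4, at 41.2 ± 1.85 and 38.7 ± 12.5 CPM in these cells, was lower in unmarked MLCs (31.4 ± 7.26 CPM) than in unmarked GFP- cells (51.5 ± 2.54 CPM). Classes were cut by detected markers and are ranges rather than types. CAM-marked cells were deeper than unmarked cells, with medians of 2370 to 6415 against 809 to 1212 UMIs, and these values were not tested.

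**Figure D4:**
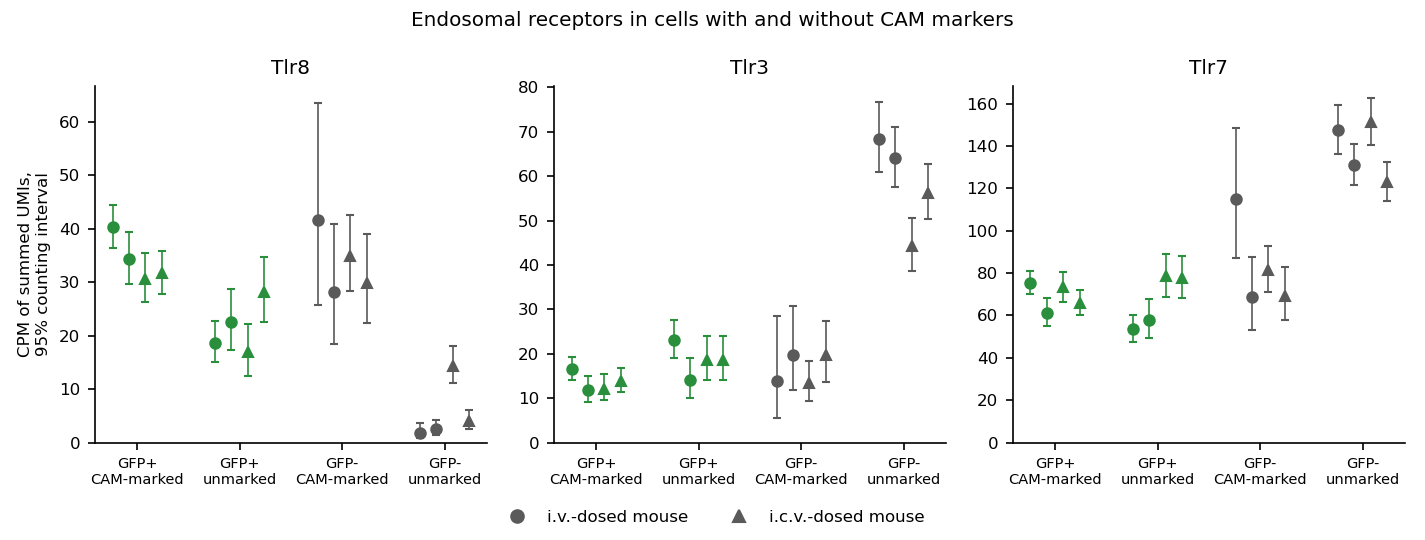
Tlr8, Tlr3 and Tlr7 in CPM of summed UMIs (vertical axes, each from 0) within CAM-marked and unmarked cells, as defined above. Each library is 1 point with its 95% counting interval, circles for i.v.-dosed and triangles for i.c.v.-dosed mice. CAM-marked cells of both sorts overlap, and unmarked GFP- cells stand apart at 44.2 to 68.5 CPM for Tlr3 and 123 to 151 CPM for Tlr7.

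Between routes, no member was called in MLCs, where 348 of 12540 tested genes were, 2.78% (edgeR). None of the 10 had an unadjusted p under 0.05, against 16.5% of all genes. The differences, i.v. over i.c.v., lay between -0.21 for Tlr7 (95% interval -0.56 to 0.13) and 0.72 for Tlr9 (-0.19 to 1.64). Tlr8 differed by 0.12 (-0.56 to 0.80) and Tlr2 by -0.04 (-0.60 to 0.52). With 2 libraries per route, differences of any size within these intervals remain compatible with the values.

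Monocyte, dendritic cell and neutrophil markers moved with the route in MLCs. The monocyte list summed to 199.8 and 291 CPM in i.v. MLCs, with all 8 markers detected, and to 1.70 and 2.75 CPM in i.c.v. MLCs, with 2 to 5 of 8 detected. The dendritic list summed to 263 to 426 against 35.7 to 60.8 CPM, and the neutrophil list to 1720.2 to 3408 against 111 to 113 CPM.

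The i.v. MLC libraries held 65 and 55 dendritic-marked cells, with at least 3 dendritic cell markers and 3 of no other blood cell or CAM list. In them Tlr7 was at 0 and 3.31 CPM and Tlr8 at 2.04 and 1.10 CPM, from at most 3 UMIs each. Tlr2 was at 99.1 and 196 CPM in the same cells. In the 30 and 15 monocyte-marked cells, Tlr7 was at 74.5 and 23.7 CPM, from 22 and 3 UMIs. Without all cells of other types the members called were 0 in MLCs as well, and the part of such cells in other values was not tested.

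In endogenous microglia no gene of 12540 was called between routes with edgeR, 0.00%, with 8.48% of genes at an unadjusted p under 0.05. Tlr8 was lower after i.v. dosing by -1.44 (SE 0.37, unadjusted p = 0.00379, edgeR adjusted p = 0.414) and Tlr2 by -0.58 (SE 0.25, unadjusted p = 0.0443, edgeR adjusted p = 0.574). The Tlr8 difference was called by DESeq2 (adjusted p = 0.0263), with no filter on low counts (adjusted p = 0.0375) and when the i.c.v. male's GFP- library was left out (adjusted p = 0.0319). Without the i.c.v. female's GFP- library it was -0.75. Among the GFP- libraries, that of the i.c.v. female was the highest in Tlr8. It also had the highest share of cells with at least 3 CAM markers, 13.1%, and the highest neutrophil marker sum, 6309 CPM. The part of either was not tested.

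Whether the sort difference depended on the route was tested as an interaction, which was called for 1.91% of 12540 genes and for no member. For Tlr8 the sort difference was larger after i.v. dosing by 1.57 on the log2 scale (95% interval 0.49 to 2.64, edgeR adjusted p = 0.136). It was called by DESeq2 (adjusted p = 0.0399), with no filter on low counts (adjusted p = 0.0273) and when the i.c.v. male's GFP- library was left out (adjusted p = 0.0217), and without the i.c.v. female's GFP- library it was 0.88 (adjusted p = 0.353). For Tlr2 it was larger by 0.54 (-0.26 to 1.34) and for Tlr3 it was -0.35 (-1.12 to 0.43), neither being called.

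Female and male recipients were compared within endogenous microglia, since Tlr7, Tlr8 and Tlr13 lie on the X chromosome and MLCs came from male donors. Of 12540 genes 4 were called, 0.0319%, and none was a member. Tlr7 was at 0.25 (95% interval -0.11 to 0.60), Tlr8 at 0.87 (-0.40 to 2.14) and Tlr13 at 0.10 (-0.26 to 0.47), female over male. Over the 16 alternatives the Tlr8 difference ran from -0.42 to 1.504, turning negative when the i.c.v. female's GFP- library was left out, with adjusted p values of at least 0.83 by edgeR or DESeq2. With 2 libraries per sex, differences of any size within these intervals remain compatible with the values.

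In treatment-naive animals each cell population gave 1 library, so values carry counting intervals only. Naive microglia had 138 CPM of Tlr2 (95% exact Poisson interval 115 to 163), 101 CPM of Tlr7 (82.4 to 123), 54.7 CPM of Tlr4 (41.1 to 71.3) and 37.5 CPM of Tlr13 (26.4 to 51.6). Tlr3 was at 32.4 CPM (22.1 to 45.7), and Tlr8 at 4.05 CPM (1.10 to 10.4) from 4 UMIs. Tlr7 lay above the GFP+ range, with an interval reaching into the GFP- range, and Tlr8 lay below the GFP+ range. The values of Tlr2 and Tlr13 lay below those of both sorts, the interval of Tlr13 reaching into the GFP+ range. This library was shallow, with a median of 425 UMIs per cell, and 51.0% of its barcodes were kept. Its neutrophil markers summed to 9507 CPM, the highest of the 12 libraries, while 0.0785% of its cells carried at least 3 of them. The part of these transcripts in its receptor levels was not tested.

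Astrocytes had Tlr3 as their leading member, at 88.5 CPM (80.2 to 97.3) from 425 UMIs, above every other library. At 500 UMIs it was found in 5.32% of 1146 astrocytes (95% exact interval 4.10% to 6.79%), against 1.66% of 482 naive microglia (0.719% to 3.24%). Only these 482 of the 1274 kept naive microglia had 500 UMIs or more. Tlr4 was at 3.95 CPM and Tlr2 at 2.71 CPM in astrocytes, and the other 7 members had 0 UMIs, which allows up to 0.624 CPM. Astrocyte markers summed to 33.9 to 83.0 CPM in GFP+ and 123 to 166 CPM in GFP- libraries, in the same direction as Tlr3. Cells with at least 3 astrocyte markers went the other way in 3 of 4 mice, at 0.226% to 0.883% of GFP+ and 0.220% to 0.449% of GFP- libraries. These cells were counted at their own depth, which was greater in the GFP+ libraries, and the part of depth was not tested. Without cells of other types the sort difference of Tlr3 was -1.44 (adjusted p = 0.000567).

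PBMCs held 341 kept cells. Their monocyte-marked cells (103 cells) had 142 CPM of Tlr2 (116 to 171), 69.5 CPM of Tlr7 (52.2 to 90.7) and 65.7 CPM of Tlr13 (48.9 to 86.4). Tlr8 was at 11.6 CPM (5.30 to 22.0) in them, below the 25.8 to 30.4 CPM of MLCs, and Tlr3 had 0 UMIs. The 109 B-cell-marked cells had Tlr1 as their leading member, at 22.0 CPM (12.8 to 35.3), with 15.5 CPM of Tlr7 (8.03 to 27.2) and no UMI of Tlr8 or Tlr13. Neutrophil-marked cells, 28 in all, had 231 CPM of Tlr2 (126 to 388) and no UMI of Tlr7, which allows up to 49.5 CPM.

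Across the 12 libraries the genes most like each member were found by Pearson's r of log2(CPM + 1), among 5960 genes. They were Myo5a, Bst2 and Ahr for Tlr8 (r of 0.978, 0.976 and 0.969), Tle4, Gpr146 and Gsdme for Tlr3 (0.970, 0.968 and 0.961) and Hk3, Pik3cg and Fgd2 for Tlr7 (0.999, 0.998 and 0.998). For Tlr2 they were Ctsc, Sdcbp and AU020206, for Tlr4 Marcks, Slc7a8 and Maf, for Tlr13 Klf6, Neurl3 and Cd84, and for Tlr1 Slamf6, Tlr13 and Slamf9. Members other than Tlr3 were at or near 0 in the astrocytes and the library labelled neurons, and any gene absent there shares this step, so these values are descriptions.

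The genes that serve the receptors were described from lists of 69 genes, of which 66 were tested between the sorts. Of these, 6 were called higher in MLCs and 11 lower, beside 16.6% and 15.9% of all tested genes in these directions. The median log2 fold change over them was -0.05.

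Among the 6 co-receptors, Ly96 (MD-2, which binds lipopolysaccharide with Tlr4) was higher in MLCs, at 64.8 ± 7.28 against 50.1 ± 3.0 CPM (SD, n = 4 each), a log2 fold change of 0.66 (SE 0.11, edgeR adjusted p = 0.00359). Cd180, a Tlr4-related receptor that pairs with Ly86, was lower, at 59.5 ± 1.06 against 158 ± 33.4 CPM, by -1.11 (SE 0.13, edgeR adjusted p = 0.000829). Cd14, which hands lipopolysaccharide to Tlr4 and Ly96, was at 1086 ± 193 and 740 ± 292 CPM and was not called (0.81, adjusted p = 0.0583).

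Of 6 genes of chaperoning and trafficking, Slc15a4, an endolysosomal histidine transporter needed for Tlr7 and Tlr9 responses, was lower, at 57.1 ± 6.61 against 106 ± 17.8 CPM (-0.61, SE 0.12, edgeR adjusted p = 0.00709). Cnpy3, a co-chaperone of receptor folding, was higher by 0.32 after TMM scaling (SE 0.10, adjusted p = 0.0381). In CPM its sorts overlapped, at 90.3 ± 3.45 and 87.9 ± 11.9. Unc93b1 differed by 0.09 (SE 0.11, adjusted p = 0.551), at 662 ± 38.1 and 758 ± 91.7 CPM.

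Among the proteases, Ctsl was lower, at 389 ± 85.9 against 828 ± 128 CPM (-0.81, SE 0.16, edgeR adjusted p = 0.00591), and Ctss was higher by 0.39 (SE 0.12, adjusted p = 0.0360), of 4 tested. In CPM the sorts overlapped for Ctss, at 4419 ± 550 and 4078 ± 197. None of the 5 genes of nucleic acid digestion was called, their adjusted p values running from 0.0563 for Pld4.

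Downstream, of 5 tested adaptors 2 were called lower, Tirap (-0.48, adjusted p = 0.0469) and Ticam1 (-0.46, adjusted p = 0.0488), both under 20 CPM and named after their values were seen. Myd88 was at 29.6 ± 4.52 and 40.5 ± 5.22 CPM and was not called (-0.15, adjusted p = 0.421). Of 14 kinases and ligases, Irak4 was higher by 0.42 (adjusted p = 0.0210), and Tab2 and Map3k7 were lower by -0.36 (adjusted p = 0.0299) and -0.30 (adjusted p = 0.0327).

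Among 8 transcription factors, Irf7, which drives type I interferon genes, was higher in MLCs at 35.0 ± 18.5 against 17.0 ± 4.06 CPM (1.34, SE 0.39, edgeR adjusted p = 0.0294). The sorts overlapped, at 15.5 to 58.5 and 13.6 to 22.6 CPM, and Irf7 was called in 12 of 19 alternatives. Between routes in MLCs it differed by 1.33, higher after i.v. dosing (adjusted p = 0.0802), in the libraries with the higher monocyte and dendritic cell markers, whose part was not tested. Irf3 was lower by -0.41 (adjusted p = 0.0285). Of 7 tested negative regulators, Irak3 was higher (0.71, adjusted p = 0.0318) and Nlrx1 lower (-0.60, adjusted p = 0.0194), both under 20 CPM and named after their values were seen.

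Of 11 secreted targets none was called higher and 2 were called lower, while the median of the list was 0.85, opposite in sign to its calls. Tnf was lower in MLCs, at 178 ± 21.7 against 417 ± 97.4 CPM (-0.94, SE 0.18, edgeR adjusted p = 0.00572). Il6, at 4.19 ± 2.08 and 10.6 ± 2.06 CPM, was lower by -1.06 (adjusted p = 0.0353) and was named after its values were seen. Il1b ranged too widely in MLCs, at 1106 ± 852 CPM against 588 ± 343 CPM, to be called (1.20, adjusted p = 0.168).

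Cd180 was called in all 19 alternatives, and Tnf, Ctsl and Slc15a4 were called in 18, Ly96 in 17, and Irak4 and Nlrx1 in 14. The other calls were lost more often, Irf3 and Tab2 being called in 11 alternatives, Irak3 in 10, Il6 in 9, Ticam1 and Map3k7 in 8, Tirap in 7, Ctss in 5 and Cnpy3 in 4. Of the other mouse receptors, Tlr12 was lower in MLCs, at 14.8 ± 1.94 against 33.3 ± 6.73 CPM (-0.89, SE 0.13, edgeR adjusted p = 0.00224), and was called in all 19. Tlr11 was too rare to be tested. Between routes in MLCs, 1 of 67 tested pathway genes was called, Ccl5, which was higher after i.v. dosing by 3.86 (adjusted p = 0.0452), beside the higher blood cell markers of those libraries given above.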

How the data were processed

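Single cells of 12 libraries were analyzed. Per the file headers, the authors made the deposited UMI counts with Cell Ranger 3.1.0 (mm10 per the labels), and the counts were not normalized. Kept barcodes had 200 or more genes and no more than 10% mitochondrial UMIs, and their counts were summed per library, the library being the unit of replication. The 8 treated libraries came in pairs from 4 mice. The main sort test treated them as independent. Its p-values rest on the spread between the libraries of a sort, each from a different mouse, and leave out the pairing within a mouse. The route, interaction and sex tests were fitted on the libraries of both sorts together. Their p-values therefore rest on a spread pooled over GFP+ and GFP- libraries of the same mice.

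Summed counts were compared with edgeR 4.0.16 (R 4.3.3), with TMM factors, filterByExpr, quasi-likelihood F tests (two-sided) and Benjamini-Hochberg adjustment over all tested genes at 0.05. The test was checked on simulated counts with known changes. Comparisons were GFP+ against GFP-, the routes within each sort, the interaction of sort and route, and recipient sex within GFP- cells. DESeq2 1.42.0 and other settings were alternatives. GFP+ and GFP- libraries of a number come from 1 mouse, and a fit with the mouse as block was added. Correlations of the deviations of these pairs ran from -0.33 to 0.20.

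Shares were computed after drawing 500 UMIs per cell, with exact Clopper-Pearson intervals. Cell classes required 3 detected markers. Doublets were not called here. Intervals and the limit of 3 counts for a 0 cover counting error only. All members were named, and pathway genes were named where called with at least 20 CPM in the higher sort, while Cd14, Unc93b1, Pld4, Myd88, Il1b and the called genes under 20 CPM were named after their values were seen. Members, lists and tests were chosen with earlier results of these data known. Promoters came from RefSeq (GRCm38.p6).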

Additional observations from a re-analysis of the deposited data

How the results depend on the processing

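The count of members called between the sorts was 4, and over the alternatives it stayed between 3 and 5, except in a fit of the pair of i.c.v.-dosed mice, where it was 2. Leaving out each library gave 3 or 4. With the mouse as replicate block the count was 4, and the pairing changed no call among the members (adjusted p = 0.0397 for Tlr1, 0.0059 for Tlr3, 0.0143 for Tlr7 and 0.0267 for Tlr8). Tlr8 lost its call in the pair of i.c.v.-dosed mice, and Tlr1 was called in 5 of 19 alternatives. Tlr13, not called, changed sign with cells thinned to 500 UMIs (-0.15), with library size alone (-0.23), in the pair of i.v.-dosed mice (-0.068) and when the i.c.v. male's GFP+ library was left out (-0.0018), its values without 1 library running from -0.0018 to 0.12, and the cause was not tested. Tlr9 did not pass the filter in the thinned counts. Between routes in GFP- cells, and for the interaction of sort and route, 0 members became 1 (Tlr8) with DESeq2, with no filter on low counts and when the i.c.v. male's GFP- library was left out, so leaving out libraries gave 0 to 1. The count stayed at 0 for routes in GFP+ cells and for recipient sex. The difference in the log2 ratio of endosomal over surface sums, -0.71 between the sorts, lay between -0.83 and -0.58 in all 12 alternatives. None of these left out Tlr2, which took 80.1% of the surface sum in MLCs and 72.6% in endogenous microglia. In CPM without TMM scaling, the mean surface sum was higher in MLCs with Tlr2, at 333 against 306 CPM. Without Tlr2 it was lower in MLCs, at 64.3 against 81.9 CPM. The difference in ratio thus rests at least in part on this 1 uncalled gene. The ratio without Tlr2 was not computed, so the range of -0.83 to -0.58 does not cover this dependence. The ratio of Tlr8 shares between the sorts was 3.41 at 500 UMIs and 3.54 at 1000 UMIs. It was 5.33 at each cell's own depth, where the GFP+ libraries were deeper than the GFP- libraries. Library size alone was added after the data were seen. Rare members (Tlr5, Tlr6 and Tlr9, under 13 CPM in every library) and 2 libraries per route limit what could be detected.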
